A study of Mus musculus with 56 samples.

Results

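The transcripts described here are those of 5 renin-angiotensin genes in mouse liver, Agt, Ace, Agtr1a, Ren1 and Ren2, out of 23813 named genes in the RNA-seq table. They were picked by gene symbol with their values in this experiment already known, and where a gene had several transcript rows the first listed row was used. All 12 RNA libraries of the series came from liver and all animals were male mice fed a low iodine diet with 0.15% propylthiouracil (PTU, an inhibitor of thyroid hormone synthesis) for 16 days. The hypothyroid WT group had 4 libraries labelled PTU, the hyperthyroid WT group had 4 libraries from mice that also received 5 µg of T3 (triiodothyronine, the active thyroid hormone) by injection over the last 4 to 6 days, and the hypothyroid L-NCOR1ΔID group had 4 libraries from PTU-fed mutants. In L-NCOR1ΔID mice the liver makes a corepressor NCOR1 that lacks the domains with which it binds thyroid hormone receptors. The mutants were kept on a mixed background of C57BL/6 and another strain. The promoter that drives the recombinase, the strain of the WT mice used for RNA and the ages of the sequenced mice are not given in the sources used here, and the study's list of animals gives a lower average age for the mutants than for WT. Genotype, strain background and age therefore cannot be told apart in the mutant comparison. The study's methods state that PTU-fed mice were randomized to injections of T3 or vehicle. The same 4 hypothyroid WT libraries served as the reference of both comparisons.

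In the renin-angiotensin system, renin cuts angiotensinogen, the product of Agt, to angiotensin I. Angiotensin converting enzyme (Ace) turns angiotensin I into angiotensin II, which acts through the type 1a receptor (Agtr1a) to raise blood pressure and aldosterone release. The liver is the main source of circulating angiotensinogen, whereas circulating renin comes mainly from juxtaglomerular cells of the kidney. Ren1 is the renin gene of every mouse strain, and Ren2 is a closely similar duplicate that some strains carry beside it and that C57BL/6 mice lack. The mutants were of mixed background and the strain of the WT mice is not given. The number of renin genes may therefore differ between mutant and WT mice, which was not tested.

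Hypothyroid WT liver held a renin signal that was far lower in the other groups, whereas Agt was moderately lower after T3, Agtr1a was at a similar level in all groups and Ace was barely detected. On the RPKM scale (reads scaled to transcript length and library depth), Ren1 averaged 31.5 in hypothyroid WT, 0.886 in hyperthyroid WT and 0.0723 in hypothyroid L-NCOR1ΔID liver. Agt was the most abundant of the 5, with a mean of 254 RPKM over the 12 libraries that ranked 208 of all 23813 genes. Agtr1a averaged 16.5 RPKM and Ace 0.318 RPKM over the same libraries.

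The start sites of the members with a RefSeq promoter window are shown first because the genes of renin and of its substrate angiotensinogen share the same core element. RefSeq windows of 300 bases (GRCm38.p6) were at hand for Agt, Ace and Ren1, with 250 bases before the transcription start site (TSS) and 50 after it. Each held a match to TATAAA, the TATA box, on either strand near the start, and capitals mark it in the 30 bases from 40 to 11 before the TSS, written 5′ to 3′ in the direction of transcription:
Agt, chr8:124569717-124569746, minus strand: accccttgagTATAAAtaagcctgcttggc
Ace, chr11:105967908-105967937, plus strand: tggctgggtTTTATAatccgcagggcggtc
Ren1, chr1:133350634-133350663, plus strand: tacatggtgtgTATAAAagaaggctcaggg
The match began 30 bases before the start of Agt, 31 before that of Ace, where it lies on the opposite strand, and 29 before that of Ren1. Of 32851 RefSeq windows, 13.6% held TATAAA on either strand. AGGTCA, the hexamer that thyroid hormone receptors bind, was absent from these 3 windows on both strands and was present in 16.3% of all windows. A further Ace window inside the gene held a match to AGGTCA 50 bases before its start and none to TATAAA. The absence of a match says only that these letters were not in the window.

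The renin signal separated the 3 groups. Ren1 stood at 49.7, 15.6, 17.0 and 43.6 RPKM in hypothyroid WT replicates 1 to 4 (31.5 ± 17.7, SD, n = 4). In hyperthyroid WT it stood at 0.506, 1.24, 0.961 and 0.839 RPKM (0.886 ± 0.303, SD, n = 4), and in L-NCOR1ΔID at 0.035, 0.13, 0.033 and 0.091 RPKM (0.0723 ± 0.0470, SD, n = 4). Every hypothyroid WT library lay above every hyperthyroid WT library, and each of these lay above every mutant library. The share of all genes with separate ranges in hyperthyroid WT and the mutant was not counted. Those groups differ in T3 as well as in genotype, and strain background and age cannot be told apart from genotype. Within hypothyroid WT, replicates 1 and 4 were high and replicates 2 and 3 low. The mean of hypothyroid WT was 35.5 times that of hyperthyroid WT and 436 times that of L-NCOR1ΔID. On the log2(RPKM + 0.1) scale the difference was -4.87 (SE 0.41) after T3 and -7.37 (SE 0.40) in the mutant. Leaving out any library kept the first between -5.14 and -4.58 and the second between -7.64 and -7.08.

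The depth of each library, read from the step that a single read makes in the RPKM values, was about 29260000 to 37980000 reads in hypothyroid WT, 21080000 to 25720000 in hyperthyroid WT and 37740000 to 42500000 in L-NCOR1ΔID. At these depths the Ren1 row held an estimated 2201, 690, 708 and 2364 reads in hypothyroid WT, 18, 44, 29 and 31 in hyperthyroid WT and 2, 7, 2 and 5 in L-NCOR1ΔID. The mutant level thus rested on 16 reads in all. Per unit of depth, the summed hypothyroid WT reads were 36.5 times those of hyperthyroid WT (95% Clopper-Pearson interval 30.5 to 44.0) and 458 times those of L-NCOR1ΔID (282 to 803). These intervals cover counting error only, not the spread between mice. The size of the mutant difference on the log2 scale depended on the pseudocount for the same reason, and was -4.74 with 1 RPKM added and -8.57 with 0.01 RPKM added.

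The row for Ren2 carried the same signal. Ren2 stood at 46.4, 14.7, 15.9 and 40.9 RPKM in hypothyroid WT, at 0.498, 1.101, 0.896 and 0.782 RPKM in hyperthyroid WT and at 0.032, 0.121, 0.031 and 0.085 RPKM in L-NCOR1ΔID. Its log2 difference was -4.86 (SE 0.40) after T3 and -7.31 (SE 0.40) in the mutant. Read numbers were estimated with the row length, between 1200 and 1800 bases, that brought the 4 mutant libraries closest to whole reads, which was 1426 bases for Ren1 and 1533 bases for Ren2. With these lengths no mutant value was more than 0.02 reads and no hyperthyroid WT value more than 0.23 reads from a whole number, and the larger hypothyroid WT numbers are rounded estimates. The estimated read numbers were nearly equal between the rows, 5963 and 5998 in hypothyroid WT, 122 and 121 in hyperthyroid WT and 16 and 16 in L-NCOR1ΔID. In the mutant, each of the 4 libraries had the same number of reads in both rows. The row lengths were fitted on these same 4 libraries, so the equal numbers follow in part from that choice and are not separate evidence. The annotated Ren1 transcript in mm9 is 1592 bases long. The RPKM ratio of Ren1 to Ren2 was 1.067 to 1.071 in the hypothyroid WT libraries and 1.016 to 1.124 over all 12. Both rows are therefore given here as a single renin signal, and which gene the reads came from, or which mice carried Ren2, was not tested. Ren2 has no entry in the mm9 gene annotation used for positions, and its promoter window is not shown here.

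**Figure D1:**
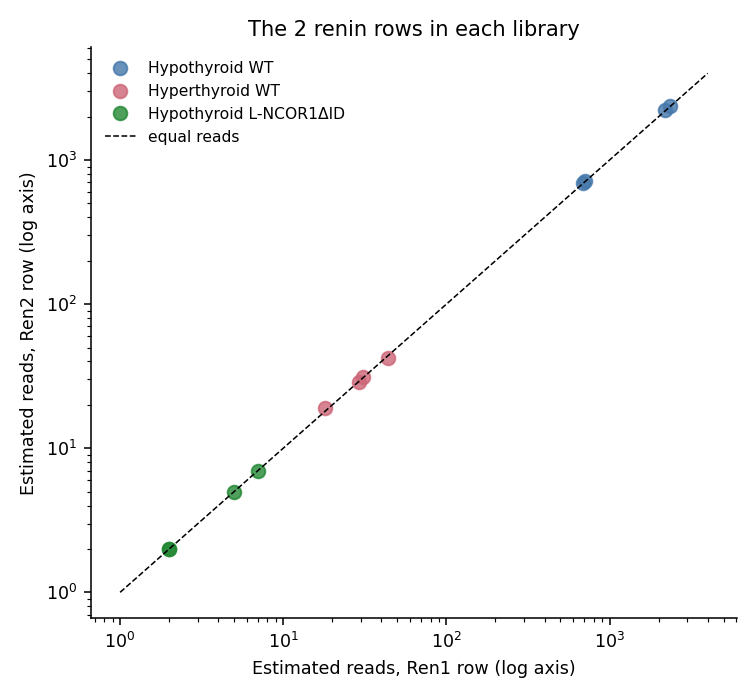
Estimated reads of the Ren2 row against the Ren1 row on log axes, with 1 point for each of the 12 libraries, coloured by group, and a dashed line of equal reads. All points lie on or close to the line, from 2 reads in L-NCOR1ΔID to 2364 and 2382 in hypothyroid WT.

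Defining markers of other organs that express renin were at or near 0. All 8 kidney markers were under 0.1 RPKM in every library, with Kap and Slc12a1 at 0 and the summed level at 0.011 to 0.049 RPKM in hypothyroid WT, where Ren1 was high, and at most 0.072 RPKM in the other groups. Of 5 adrenal markers, Cyp11b1 and Mc2r were at 0 and only Star exceeded 0.1 RPKM, and their summed level was 0.572 to 0.772 RPKM in hypothyroid WT, 0.648 to 0.973 in hyperthyroid WT and 0.671 to 0.972 in L-NCOR1ΔID. Of 6 submandibular gland markers, Klk1b22, Smgc, Bpifa2 and Dcpp1 were at 0 in every library, and the summed level was 1.02 to 1.69, 1.24 to 2.06 and 1.53 to 2.52 RPKM in the same order.

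The T3-responsive transcripts Thrsp and Dio1 also varied among the hypothyroid WT libraries. Thrsp, a lipogenic regulator and a classical T3 target, was at 209 and 237 RPKM in replicates 1 and 4, which had the highest Ren1, and at 490 and 352 RPKM in replicates 2 and 3. Dio1, the T3-induced type 1 deiodinase, was at 0.719, 6.64, 57.7 and 8.98 RPKM in hypothyroid WT replicates 1 to 4. Replicate 3 was the highest, and replicate 1, which had the highest Ren1, was the lowest. Hyperthyroid WT stood at 459 to 641 RPKM of Dio1. The part of these differences between hypothyroid mice in the spread of Ren1 was not tested. After T3, Thrsp rose by 2.29 on the log2 scale (limma adjusted p = 8.1e-04) and Dio1 by 6.20 (adjusted p = 0.0012). The mutant mean of Thrsp was 844 RPKM against 322 RPKM in hypothyroid WT (log2 difference 1.39, limma adjusted p = 0.054). That of Dio1 was 8.55 against 18.5 RPKM (log2 difference -1.15, limma adjusted p = 0.71), and neither was called in the mutant. In L-NCOR1ΔID the targeted gene Ncor1 was at 12.97 ± 0.844 RPKM (SD, n = 4) against 14.7 ± 0.665 RPKM in hypothyroid WT (log2 difference -0.18, limma adjusted p = 0.20). The mutant range of Ncor1, 12.1 to 13.9 RPKM, lay below that of hypothyroid WT, 14.1 to 15.6 RPKM, as for 5.36% of all genes. The deposited gene value cannot show whether the interaction domains were missing.

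Agt, the substrate of renin, was lower in hyperthyroid WT. It stood at 344, 270, 267 and 377 RPKM in hypothyroid WT replicates 1 to 4 (314 ± 54.7, SD, n = 4) and at 189, 206, 198 and 233 RPKM in hyperthyroid WT (206 ± 18.8, SD, n = 4). The ranges did not overlap, and the hypothyroid WT mean was 1.52 times the hyperthyroid one. As for Ren1, replicates 1 and 4 were the higher hypothyroid WT libraries. In L-NCOR1ΔID Agt stood at 215, 304, 224 and 219 RPKM (240 ± 42.4, SD, n = 4). Replicates 1, 3 and 4 lay below every hypothyroid WT library, and replicate 2 lay within their range. The log2 difference was -0.59 (SE 0.13) after T3 and -0.39 (SE 0.15) in the mutant. Hyperthyroid WT and L-NCOR1ΔID overlapped in Agt. Each library held an estimated 7876 to 27051 Agt reads, so the spread between libraries was not set by counting.

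The summed level of 7 hepatocyte markers was 38508 to 50066 RPKM in hypothyroid WT, 20398 to 29041 in hyperthyroid WT and 32209 to 36272 in L-NCOR1ΔID. The sum was led by albumin (Alb), which averaged 31804, 14325 and 22674 RPKM. After T3 the ranges of Alb, Ttr and Cps1 lay below hypothyroid WT, and those of Apoa1, Apob, Serpina1a and Tat overlapped it with higher means. The summed level of 5 Kupffer cell markers was 35.6 to 50.1 RPKM in hypothyroid WT, 117 to 197 RPKM in hyperthyroid WT and 42.4 to 115 RPKM in L-NCOR1ΔID. In bulk liver, fewer cells of a type and less RNA per cell cannot be told apart, and the part of these shifts in the Agt level was not tested.

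Agtr1a, the angiotensin II receptor gene, was at a similar level in all groups. It stood at 15.5, 14.2, 16.02 and 15.6 RPKM in hypothyroid WT (15.3 ± 0.804, SD, n = 4), at 15.6, 18.6, 18.3 and 18.4 RPKM in hyperthyroid WT (17.7 ± 1.42, SD, n = 4) and at 15.2, 16.9, 16.8 and 17.4 RPKM in L-NCOR1ΔID (16.6 ± 0.981, SD, n = 4). Hyperthyroid WT replicates 2, 3 and 4 lay above every hypothyroid WT library and replicate 1 did not, and all 3 groups overlapped. The log2 difference was 0.21 (SE 0.08) after T3 and 0.11 (SE 0.07) in the mutant. The difference after T3 was close to the median of all genes tested, 0.23, and became -0.03 (SE 0.08) when the libraries were scaled to equal medians of gene ratios.

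Ace, the converting enzyme gene, was low throughout. It stood at 0.296, 0.158, 0.189 and 0.19 RPKM in hypothyroid WT (0.208 ± 0.0604, SD, n = 4), at 0.36, 0.36, 0.286 and 0.226 RPKM in hyperthyroid WT (0.308 ± 0.0648, SD, n = 4) and at 0.488, 0.599, 0.35 and 0.315 RPKM in L-NCOR1ΔID (0.438 ± 0.131, SD, n = 4). All mutant libraries lay above all hypothyroid WT libraries, whereas hyperthyroid WT overlapped both. The log2 difference was 0.41 (SE 0.20) after T3 and 0.79 (SE 0.22) in the mutant. An estimated 24 to 111 reads per library lay behind these values. The noncoding gene Gm11651 overlaps Ace on the opposite strand, and since the counting is not stated to use strand, reads of the pair cannot be told apart. Ace is made by endothelial cells in many organs. The summed level of 7 endothelial markers was 42.3 to 62.0 RPKM in hypothyroid WT, 63.0 to 75.1 in hyperthyroid WT and 49.9 to 64.6 in L-NCOR1ΔID. Clec4g led this sum, with means of 28.5, 34.9 and 23.9 RPKM. Lyve1 averaged 1.24, 3.76 and 5.08 RPKM, with every hyperthyroid WT and mutant library above every hypothyroid WT library. In the mutant, Pecam1, Cdh5, Kdr, Tek, Stab2 and Clec4g overlapped hypothyroid WT, and the means of Kdr and Clec4g were lower. After T3, Pecam1, Cdh5 and Tek also lay above hypothyroid WT, whereas Kdr, Stab2 and Clec4g overlapped it. The part of these markers in the Ace level was not tested.

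**Figure D2:**
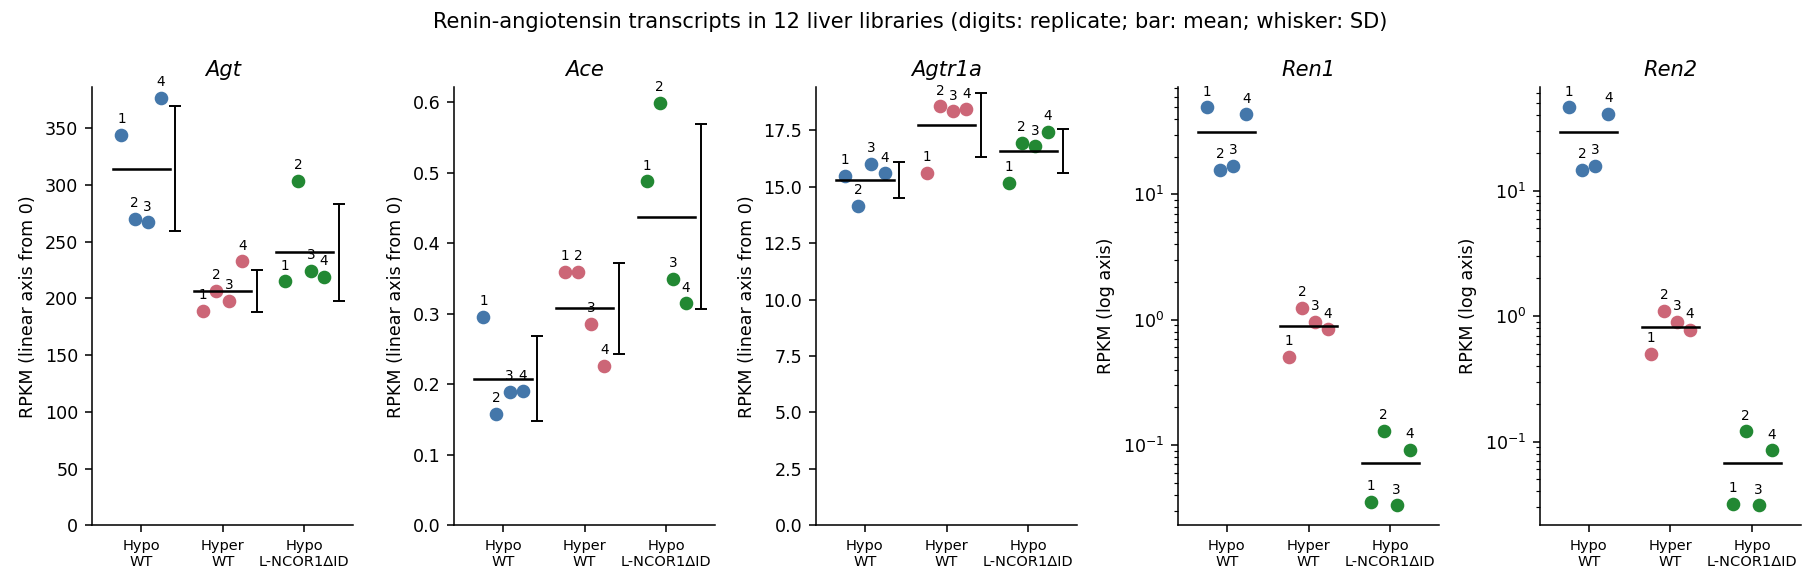
RPKM of the 5 genes in the 12 libraries, by group (Hypo for PTU without T3, Hyper for PTU with T3). The replicate number is beside each point, a bar marks the mean and, on the linear axes, a whisker shows 1 SD. The Ren1 and Ren2 panels have log axes and show 3 separate groups, whereas the Agtr1a groups overlap.

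All 5 genes reached 0.1 RPKM in 4 or more of the 8 libraries of each comparison and so passed the filter, Ren1 and Ren2 in the mutant comparison through hypothyroid WT and a single mutant library. Calls after T3 needed an adjusted p under 0.01 and a log2 difference above 1 in size, which 11.8% of 13941 genes tested met (8.28% higher and 3.47% lower). In the mutant comparison an adjusted p under 0.01 was needed, which 1.27% of 13790 genes met (0.725% higher and 0.544% lower). Ren1 and Ren2 were on the lower side in both, and Agt, Ace and Agtr1a were called in neither. Ranges that did not overlap, as for Agt after T3, were seen for 10.8% of genes on the lower side. In the mutant comparison they were seen for 7.78% on the higher side, where Ace lay, and for 5.36% on the lower side, where Ren1 and Ren2 lay. Since the genes were chosen with these contrasts known, nothing is read from these counts and no p is given for them.

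Of 33 further genes of the system, 32 were in the table and 17 passed the filter in each comparison. After T3, 3 were called higher and 1 lower, beside 8.28% and 3.47% of all genes. Agtrap, which encodes a protein that binds the type 1 receptor and promotes its internalization, was 0.732 ± 0.130 RPKM in hypothyroid WT and 1.73 ± 0.145 RPKM in hyperthyroid WT (SD, n = 4 each; log2 difference 1.15, SE 0.15, adjusted p = 3.3e-04). Rnpep, aminopeptidase B, rose from 10.7 ± 1.92 to 22.7 ± 2.43 RPKM (log2 difference 1.09, SE 0.13, adjusted p = 2.5e-04). Prcp, a carboxypeptidase that removes the last residue of angiotensin II, rose from 1.38 ± 0.220 to 2.99 ± 0.604 RPKM (log2 difference 1.06, SE 0.16, adjusted p = 8.9e-04). Enpep, the aminopeptidase A that turns angiotensin II into angiotensin III, fell from 31.3 ± 5.20 to 15.2 ± 2.99 RPKM (log2 difference -1.04, SE 0.17, adjusted p = 0.0010). All 4 had separate ranges in hypothyroid and hyperthyroid WT, as had 35.8% of all genes on the higher and 10.8% on the lower side.

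Those calls sat close to the limit on size. With the libraries scaled to equal medians of gene ratios, 0 of the list were called higher and 1 lower, since Agtrap, Rnpep and Prcp came to 0.93, 0.85 and 0.83. With 1 RPKM added before the logarithm, only Rnpep was called. Enpep fell short of the limit without hypothyroid WT replicate 1 or 4 or hyperthyroid WT replicate 4, Rnpep without hypothyroid WT replicate 1, and Prcp without hypothyroid or hyperthyroid WT replicate 3. Without hypothyroid WT replicate 1 the list held 2 calls.

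With the adjusted p under 0.01 alone and no limit on size, 5 of the 17 were higher and 3 lower after T3, beside 24.5% and 7.71% of all genes. With the libraries scaled to equal medians of gene ratios, 4 were higher and 5 lower. The additional genes without that scaling were Nln (neurolysin, log2 difference 0.77, adjusted p = 9.8e-05) and Lnpep (the angiotensin IV-binding aminopeptidase, 0.61, adjusted p = 0.0047) on the higher side, and Ctsa (cathepsin A, -0.61, adjusted p = 0.0023) and Kng1 (kininogen 1, the bradykinin precursor, -0.57, adjusted p = 0.0028) on the lower side. Kng1 was the most abundant of the list, at 665 ± 67.1 RPKM in hypothyroid WT and 448 ± 45.2 RPKM in hyperthyroid WT (SD, n = 4 each). The median log2 difference of the 17 genes was 0.23, the same as the median of all genes tested.

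Among those that did not pass after T3, Anpep (aminopeptidase N), Atp6ap2 (the prorenin receptor) and Kng2 had log2 differences of 0.23, 0.27 and 0.24, with adjusted p from 0.020 to 0.22. Mme (neprilysin), at 8.08 ± 1.88 RPKM in hypothyroid WT and 11.8 ± 4.23 in hyperthyroid WT, differed by 0.50 (SE 0.24). Thop1, Dpp3 and Prep, peptidases that cut small peptides, differed by 0.11, 0.19 and -0.15, and Ctsd (cathepsin D) by 0.03. Nr3c2, the mineralocorticoid receptor, was 2.66 ± 0.0796 and 2.13 ± 0.302 RPKM, a difference of -0.32 (adjusted p = 0.046).

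In L-NCOR1ΔID none of the 17 was called in limma at an adjusted p under 0.01, beside 1.27% of all genes, and 6 had an unadjusted p under 0.05, as had 20.5% of all genes. Prep came nearest, at 15.99 to 17.3 RPKM in hypothyroid WT and 10.8 to 13.3 RPKM in the mutant (n = 4 each, log2 difference -0.47, SE 0.08, adjusted p = 0.011), and it passed when mutant replicate 4 was left out. Ctsd was 161 ± 8.49 and 208 ± 23.99 RPKM (log2 difference 0.36, adjusted p = 0.072) and Agtrap differed by 0.44 (adjusted p = 0.21). Rnpep, Prcp and Enpep differed by 0.13, -0.02 and 0.11. The median log2 difference of the list was 0.11 and that of all genes 0.03.

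**Figure D3:**
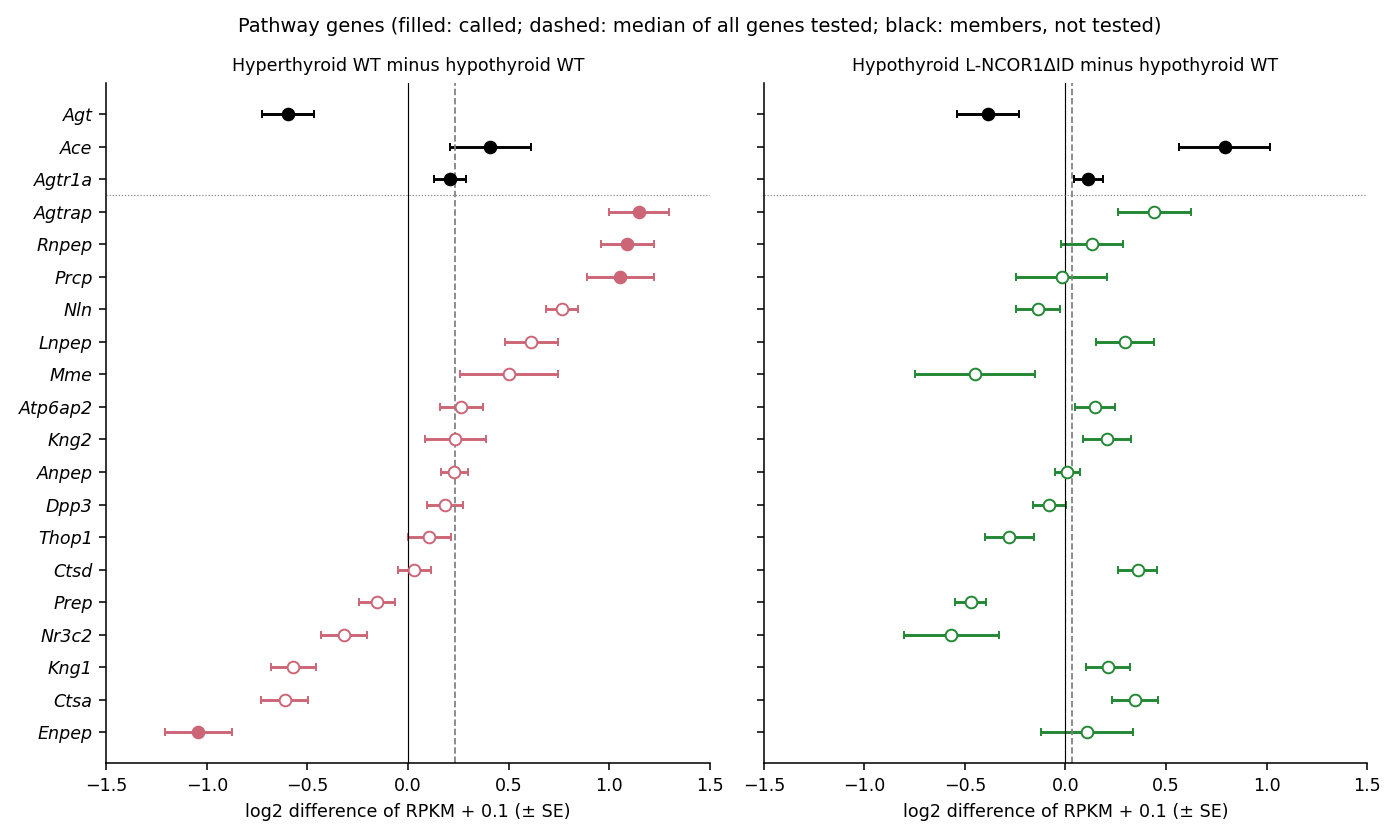
Log2 difference of RPKM + 0.1 with its SE for the 17 tested genes of the pathway list and for Agt, Ace and Agtr1a, after T3 on the left and in L-NCOR1ΔID on the right, with n = 4 libraries per group, filled coloured points for genes called and a dashed line at the median of all genes tested. After T3 Agtrap, Rnpep, Prcp and Enpep are filled, and in the mutant no list gene is.

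The remaining 15 genes of the list in the table were below the filter. The receptors Agtr2 and Mrgprd and the protease Ctsg were at 0 in every library, and so was the adrenal aldosterone-pathway gene Cyp11b1. Agtr1b did not exceed 0.012 RPKM. Mas1, the receptor of angiotensin (1-7), was at 0.034 to 0.236 RPKM in hypothyroid WT, 0 to 0.051 in hyperthyroid WT and 0.011 to 0.086 in L-NCOR1ΔID. Klk1, tissue kallikrein, was at 12.7 RPKM in hyperthyroid WT replicate 3 and at most 0.876 RPKM in the other 11 libraries.

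The genes with the profile most like that of Ren1 were sought among 10659 genes with a mean of at least 1 RPKM, by the root mean square difference of log2(RPKM + 0.1) values centred over the 12 libraries. The nearest was Pcp4l1 (1.57), a relative of the calmodulin-binding protein Pcp4, followed by Ankrd55 (1.72), an ankyrin repeat gene, and Obp2a (1.79), an odorant-binding lipocalin gene, and the centred profile of Ren1 itself had a root mean square of 3.10. Pcp4l1 stood at 40.9, 19.5, 18.9 and 39.8 RPKM in hypothyroid WT, at 2.17 to 3.14 RPKM in hyperthyroid WT and at 1.29 to 3.93 RPKM in L-NCOR1ΔID. It shared with Ren1 the higher values in hypothyroid WT replicates 1 and 4, but hyperthyroid WT and L-NCOR1ΔID overlapped. Ankrd55 was 3.61 to 5.79, 0.055 to 0.239 and 0.094 to 0.403 RPKM in the 3 groups. Obp2a stood at 1.72, 17.8, 14.4 and 4.55 RPKM in hypothyroid WT, with replicates 1 and 4 the lower ones, and at 1.13 to 2.36 and 0.033 to 0.146 RPKM in the other groups.

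**Figure D4:**
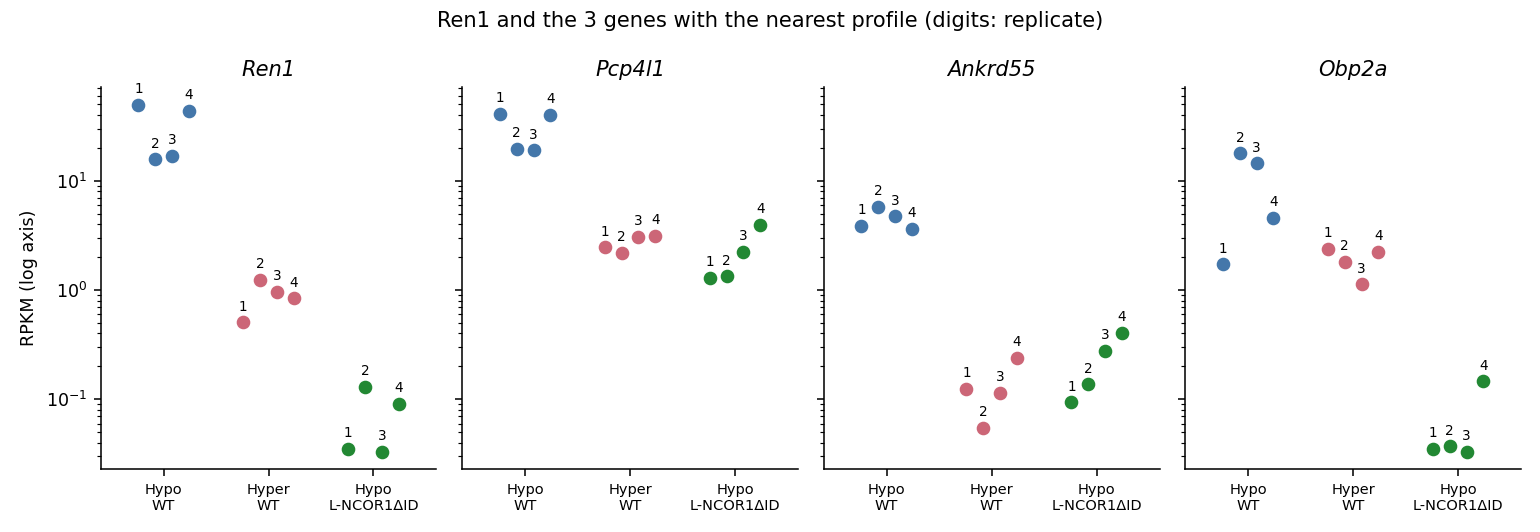
RPKM on a shared log axis of Ren1 and of the 3 genes with the nearest centred profile, Pcp4l1, Ankrd55 and Obp2a, in the 12 libraries, with the replicate number beside each point. Ren1 separates all 3 groups, whereas in Pcp4l1 and Ankrd55 hyperthyroid WT and L-NCOR1ΔID overlap.

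For Agt the nearest profiles were those of Pqbp1 (0.130), a polyglutamine-binding protein gene, Dmac2 (0.134), a factor for assembly of a respiratory chain complex, and Mrpl15 (0.142), a mitochondrial ribosomal protein gene, against a root mean square of 0.307 for Agt itself. Pqbp1 was 21.1 to 25.5 RPKM in hypothyroid WT, 15.3 to 18.5 in hyperthyroid WT and 16.8 to 21.2 in L-NCOR1ΔID, where its highest library was replicate 2, as for Agt. The likeness is a description of these 12 libraries.

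In the mm9 annotation (GENCODE M1), Agt has 5 exons at chr8:127080434-127093606 on the minus strand, Ace 25 exons at chr11:105829259-105851278, Agtr1a 3 exons at chr13:30428310-30474736 and Ren1 9 exons at chr1:135247087-135256902, each of the last 3 on the plus strand. The deposited list of regions with acetylated histone H3 (H3K9Ac or H3K27Ac, marks of active promoters and enhancers), merged over hypothyroid and hyperthyroid WT liver, was set against these positions. It has no value per sample and so cannot show a change between groups. A region covered the TSS of Agt (chr8:127082367-127098605), of Ace (chr11:105828704-105829703) and of Agtr1a (chr13:30427798-30441868), as for 86.0% of 12314 genes tested that had a position. The TSS of Ren1 was not covered. Its nearest regions were chr1:135241802-135246430, which ended 657 bp upstream, and chr1:135249230-135251159, which began 2143 bp downstream within the gene.

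Within 100 kb of the TSS there were 17 regions for Ren1, 11 for Agt, 7 for Ace and 4 for Agtr1a, against a median of 7 over the genes tested (quartiles 5 and 10). Regions covered 85.3% of the bases of Agt, 53.0% of Agtr1a, 27.3% of Ren1 and 4.14% of Ace. The RefSeq start window of Ren1, matched base for base in mm9 (chr1:135247001-135247300), lay outside every region, whereas those of Agt and the main start of Ace lay inside. The RefSeq start of Ren1 lies downstream of the GENCODE TSS, chr1:135247087, from which the distances are counted. Since the list has no signal values, a gap in it does not show that acetylation was absent there. The 250 bases before the start of Agt (GRCm38.p6 chr8:124569707-124569956, minus strand) and Ace (chr11:105967698-105967947, plus strand) lie inside listed regions. They are given with the TATA box match in capitals:
Agt: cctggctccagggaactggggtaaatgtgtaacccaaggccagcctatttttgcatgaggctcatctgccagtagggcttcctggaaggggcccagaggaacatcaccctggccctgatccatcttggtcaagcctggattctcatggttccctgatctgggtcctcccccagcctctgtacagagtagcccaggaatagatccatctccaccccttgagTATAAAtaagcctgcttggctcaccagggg
Ace: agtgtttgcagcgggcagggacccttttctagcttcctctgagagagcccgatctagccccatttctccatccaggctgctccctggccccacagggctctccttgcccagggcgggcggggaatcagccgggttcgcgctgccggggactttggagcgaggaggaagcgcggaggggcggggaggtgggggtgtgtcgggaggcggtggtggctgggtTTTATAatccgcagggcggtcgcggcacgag

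**Figure D5:**
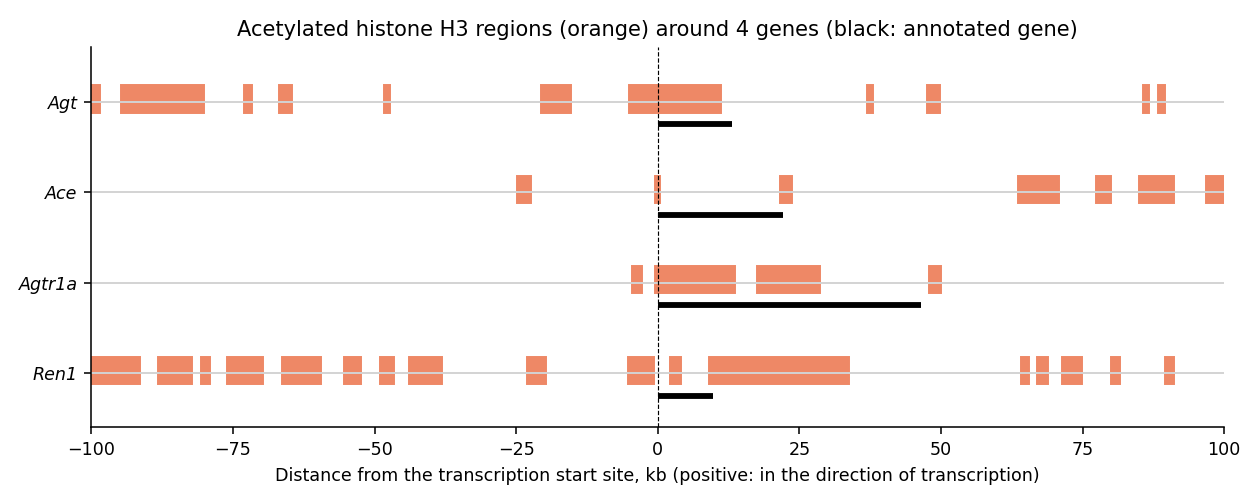
Acetylated histone H3 regions within 100 kb of the TSS of Agt, Ace, Agtr1a and Ren1, drawn to scale by distance from the TSS in kb along the direction of transcription, with the annotated gene in black beneath. A region spans the TSS of Agt, Ace and Agtr1a, and the TSS of Ren1 lies in a gap.

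The regions within 10 kb of each TSS were searched on both strands for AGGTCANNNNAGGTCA, the direct repeat spaced by 4 bases that thyroid hormone receptors bind with RXR, allowing windows with at least 10 of the 12 hexamer bases. The region over the start of Agt held 2 such windows and that over the start of Agtr1a held 1, shown in mm9 with the hexamers in capitals because they are the closest matches beside these genes:
Agt, chr8:127097114-127097129, plus strand: AGGTCAagatAGGTAC
Agt, chr8:127084260-127084275, minus strand: AGGTCAtggcAGGTTT
Agtr1a, chr13:30431741-30431756, plus strand: AAGTCTctttAGGTCA
They lay 3515 and 9339 bp from the TSS of Agt and 3438 bp from that of Agtr1a, and each matched 10 of 12 bases. Of 418 regions within 10% of the length of the Agt region, 86.8% held such a window, as did 82.9% of 510 regions like that of Agtr1a. The best windows in both regions flanking the start of Ren1 matched 9 of 12 bases, where 43.5% and 21.4% of regions of like length held one with 10. The region over the start of Ace had a best match of 8, and 13.2% of regions like it reached 10. The third region of Ren1, which extends over the neighbouring gene Etnk2, held 5 windows with 10 bases, as 97.4% of regions of its length held at least 1.

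None of the 6 genes nearest to Ren1 was called in either comparison, with 3 of them at an unadjusted p under 0.05 in limma after T3 and 0 in the mutant, beside 56.5% and 20.5% of all genes. The 3 nearest tested genes upstream were Kiss1, Golt1a and Plekha6, with start sites 28.6, 40.7 and 104 kb away, and the 3 nearest downstream were Etnk2, Sox13 and Snrpe, at 13.1, 73.9 and 260 kb. Etnk2, an ethanolamine kinase, was the only one of them with a lower level after T3 beyond 0.1 on the log2 scale, at 215 ± 5.98 RPKM in hypothyroid WT and 140 ± 40.3 RPKM in hyperthyroid WT (SD, n = 4 each; log2 difference -0.66, SE 0.18, adjusted p = 0.014). Golt1a, a Golgi transport protein gene, and Plekha6, a pleckstrin homology domain gene, differed by 0.59 (adjusted p = 0.0031) and 0.95 (adjusted p = 0.0029) after T3, short of the limit of 1 on size. Plekha6 passed that limit without hypothyroid WT replicate 3 (1.04) or hyperthyroid WT replicate 4 (1.10). Kiss1, kisspeptin, was at 0.393 ± 0.172 and 0.504 ± 0.243 RPKM and overlaps Golt1a in position. In L-NCOR1ΔID the log2 differences of the 6 neighbours were between -0.11 and 0.40, and none was called, with adjusted p from 0.25 to 0.96 in limma.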

How the data were processed

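Liver poly(A) RNA of 12 mice (4 per group, each group independent biological replicates) was sequenced. The sample descriptions of the series name HiSeq 1500 and NovaSeq 6000 instruments. The authors aligned reads to mm9 with STAR and quantified RefSeq transcripts with HOMER (versions not given in the sources used here), and deposited RPKM values per library. The deposited acetylated regions are mm9 start and end positions merged by the authors. The 44 ChIP samples of the series were not analysed here. Of 31370 rows, 1 without a gene name was left out. For each gene the first listed transcript was used, values were taken as log2(RPKM + 0.1), genes with at least 0.1 RPKM in 4 of 8 libraries were kept, and limma 3.58.1 (R 4.3.3) was fitted for each comparison with its trended prior variance, and p-values were adjusted by Benjamini-Hochberg over all genes tested. The fit was tested on simulated data. Depth was estimated as the read total at which most low values became whole reads (within 0.06), reached by 60.1% to 67.4% of them. The median over all totals tried was 5.7% to 6.8%. Where several totals scored close to the best, the best total near the lowest of them was taken. Members, gene lists and tests were chosen with earlier results of these data known. Named were the members, list genes at 1 RPKM or more in any group or called, the 3 nearest profiles to Agt and Ren1, the 3 nearest tested genes on each side of Ren1, and Ncor1, Thrsp and Dio1. Further genes were named after their values were seen, namely Mas1, Agtr1b, Agtr2, Mrgprd, Ctsg and Cyp11b1.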

Additional observations from a re-analysis of the deposited data

Results flagged for a closer look

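In groups of 4 libraries a value was singled out when its gap to the nearest of the others, divided by the range of the group, exceeded Dixon's 95% critical value, which chance gives in about 1 of 20 groups. Over 32 genes and 96 groups, 9 values were singled out. Among the members, Agt was at 303.8 RPKM in L-NCOR1ΔID replicate 2, with the others at 215 to 224, and Agtr1a was at 15.6 RPKM in hyperthyroid WT replicate 1, with the others at 18.3 to 18.6. In L-NCOR1ΔID replicate 1, Enpep was at 55.1 RPKM with the others at 26.2 to 30.2, and Mme was at 11.2 RPKM with the others at 4.34 to 4.82. Klk1 was at 12.7 RPKM in hyperthyroid WT replicate 3, with the others at 0 to 0.876, and at 0.028 RPKM in L-NCOR1ΔID replicate 2, with the others at 0. Kiss1 was at 0.648 RPKM in hypothyroid WT replicate 1, with the others at 0.278 to 0.326. Sox13 was at 3.06 RPKM in L-NCOR1ΔID replicate 2, with the others at 2.50 to 2.54. Dio1 was at 57.7 RPKM in hypothyroid WT replicate 3, with the others at 0.719 to 8.98.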

How the results depend on the processing

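Ren1 and Ren2 were lower in both comparisons under every alternative run. The size of the difference changed with the pseudocount: with 1 RPKM added, Ren1 differed by -3.94 after T3 and -4.74 in the mutant and Ren2 by -3.90 and -4.66, and with 0.01 RPKM added, the mutant differences were -8.57 for both. With 1 RPKM added, Ace differed by 0.11 and 0.25, and 894 genes in all and 1 of the list were called after T3. Scaling to equal medians of gene ratios moved the median of all genes after T3 from 0.23 to 0.01 and the calls from 1155 higher and 484 lower to 749 and 681, with Agt at -0.83, Agtr1a at -0.030, Anpep at -0.0094 and 1 call in the list. At an adjusted p under 0.05, 601 genes and 1 of the list were called in the mutant, against 175 and 0. Leaving out a library gave 67 to 187 calls in the mutant comparison and 1430 to 1583 after T3, with 2 to 4 and 0 to 1 calls in the list. The lowest mutant counts came without hypothyroid WT replicate 2 (67) or 4 (67) and the list call without L-NCOR1ΔID replicate 4. With replicate number as a block, 45 genes were called in the mutant comparison (20 higher, 25 lower) and 1506 after T3, and no call of the members or the list changed. Without the limit on size, the list held 4 higher and 3 lower with the block, against 5 and 3. Deviations of same-numbered libraries correlated at -0.06 to 0.07 in the T3 comparison and at -0.12 to 0.17 in the mutant comparison. Of the hypothyroid WT libraries, 2 of 4 and 1 of 4 were best matched by their own number. With 4 libraries per group this check cannot exclude pairing, and the sample titles state none. Within 50 kb there were 5, 3 and 6 acetylated regions for Agt, Ace and Ren1, within 200 kb 14 for Ace, and counting regions of at least 2000 bp left 6 for Agt and 11 for Ren1. Depth limits Ace and the mutant renin level, which rest on at most 111 and 7 reads per library. Ace had no value in either comparison when a mean of at least 1 RPKM was required.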
